A study of Arabidopsis thaliana with 6 samples.

Results

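The class III peroxidases PER1 to PER73 of Arabidopsis thaliana are secreted heme enzymes. Of these 73 genes, 60 were followed through the cell layers of the root tip. They were picked by locus identifier, with earlier results of these data known. The values come from RNA sequencing of fluorescence-sorted root cells, in 6 libraries that cover 5 cell types, and the seedlings were 6 days old. Epidermis was sorted with the ProWER:GFP reporter, cortex with ProAT1G09750:GFP, endodermis with ProSCR:GFP in line1 and line2, stele (the central vascular cylinder) with ProWOL:GFP, and columella root cap with the PET111 enhancer trap line. All libraries shared the age, a medium with sucrose, long days and no treatment, and a reporter marks the cells in which its promoter is active rather than a layer by anatomy. Only endodermis has 2 libraries, so every value from the other 4 cell types comes from 1 library and has no replicate check. In bulk sorted material, fewer cells of a type and less RNA per cell cannot be told apart.

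Class III peroxidases use hydrogen peroxide to oxidise small phenolic compounds in the cell wall. In this way they couple monolignols into lignin and cross-link wall proteins such as extensins, which stiffens a wall, and they can also produce reactive oxygen species that loosen it. In roots they are known for the Casparian strip, the lignin ring that seals the endodermis, for the growth of root hairs, for lignified xylem and for the balance of reactive oxygen species at the end of the meristem.

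Levels are in FPKM, a unit that divides fragments by transcript length and by library size, so that genes can be compared within a library. The summed FPKM of a library lay between 576322 and 642028, and the number of reads behind it is not given in the sources used here. Genes were taken as measured if any library had 1 FPKM or more, and this held for 19671 genes and for 44 of the 60 peroxidases. Markers fitted the labels in part: 7 of 7 root hair markers and 3 of 6 measured epidermis markers were enriched in the epidermis library, 8 of 10 endodermis markers in endodermis, 6 of 8 stele markers in stele, 2 of 3 cortex markers in cortex and 4 of 7 root cap markers in columella root cap. The marker lists include genes whose promoters drove the sorting. Of these, WER and AED3 (AT1G09750) count among the enriched markers and are no independent check. SCR and WOL were highest in their own layers but missed the rule there, with log2 margins of 0.694 and 0.568. The stele library held 1 of 5 phloem markers and 0 of 9 xylem markers as enriched. The columella root cap library held 7 of 9 xylem markers as enriched, and the endodermis lines differed from each other, as given beside the results these touch.

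Peroxidase transcripts were unevenly spread over the layers. Their summed level was 3706 FPKM in epidermis, 1542 in cortex, 8416 and 3223 in endodermis lines 1 and 2, 338.3 in stele and 556.8 in columella root cap. This was 1.36% of all FPKM in endodermis line 1, 0.621% in epidermis, 0.502% in endodermis line 2, 0.246% in cortex, 0.0966% in columella root cap and 0.0549% in stele. The 3 outer and middle layers thus each held more peroxidase RNA than stele and columella root cap, and the gap between the endodermis lines was as wide as that between some layers. The number of members at 1 FPKM or more ran from 20 in stele to 43 in endodermis line 1, with 32 in epidermis, 32 in cortex, 26 in columella root cap and 23 in endodermis line 2.

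**Figure D1:**
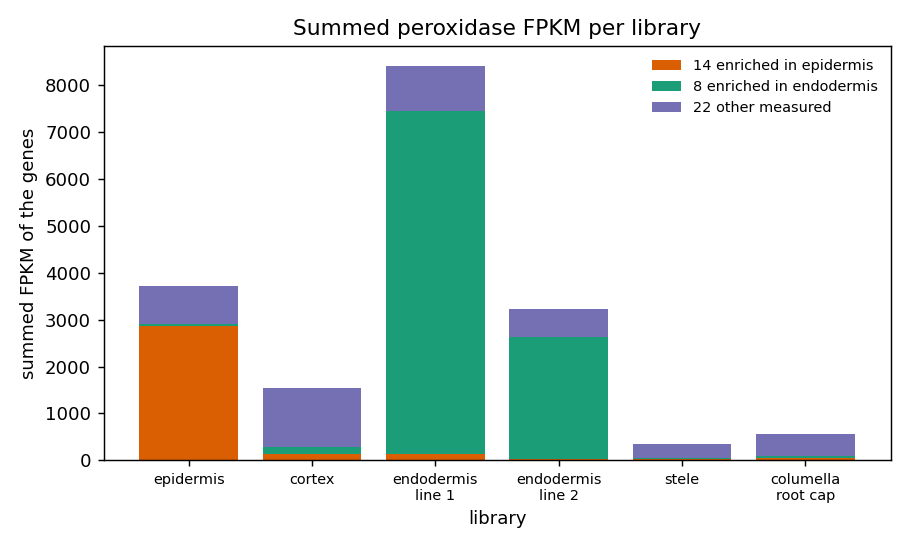
Summed FPKM of the 60 peroxidase genes (vertical axis) in each library (horizontal axis), split into the 14 genes enriched in epidermis, the 8 enriched in endodermis and the 22 other measured genes. The bar for endodermis line 1 reaches 8416 FPKM and that for stele 338.3, and in epidermis and both endodermis lines most of the bar is the layer's own enriched genes.

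A gene counted as enriched in a cell type if its log2(FPKM + 1) exceeded that of all libraries from other cell types by 1 or more and it reached 5 FPKM. The rule looks at size alone and gives no p-value, and for endodermis both lines had to meet it. By this rule 25 of the 44 measured peroxidases (56.8%) were enriched in some cell type, against 13.0% of all measured genes. The level in the highest cell type was a median of 9.87 times that in the next one for the peroxidases, and 1.5 times for all measured genes. Endodermis entered these ratios as the mean of its lines. Epidermis held 14 enriched peroxidases (31.8% of 44, against 4.46% of all measured genes) and endodermis 8 (18.2% against 0.681%). Cortex, stele and columella root cap held 1 each (2.27%, against 0.824%, 1.55% and 5.44% of all genes in that order). The highest level lay in epidermis for 20 peroxidases (16.2% of all genes had theirs there), in endodermis, by the mean of its lines, for 17 (10.6%), in stele for 3 (32.3%), in cortex for 2 (15.8%) and in columella root cap for 2 (25.1%). The shares of peroxidases enriched and of peroxidases highest there both lay above the background of all genes in epidermis and endodermis, and both lay below it in columella root cap. They describe the listed genes, which were chosen with earlier results of these data known.

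**Figure D2:**
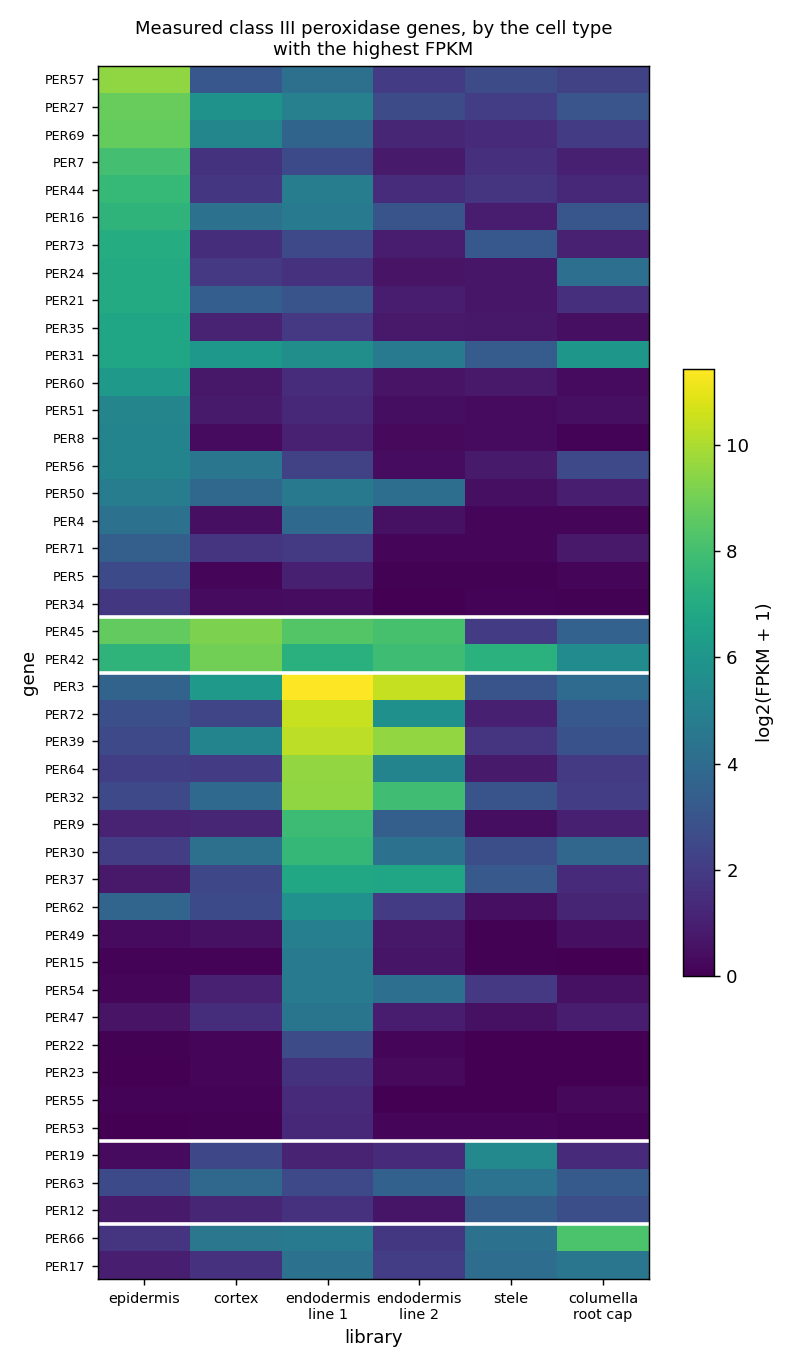
Level of the 44 measured peroxidase genes, as log2(FPKM + 1) by colour, in the 6 libraries (columns), with genes (rows) grouped by the cell type of their highest level and white lines between the groups. The block of 20 genes at the top is bright in epidermis, the block of 17 in the endodermis lines, and several genes of the latter are bright in line 1 and dark in line 2.

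In epidermis the enriched peroxidases together made up 77.4% of the peroxidase FPKM of that library. PER57 (AT5G17820), which the transcription factor UPBEAT1 is known to repress, stood at 736 FPKM in epidermis, 7.60 in cortex, 17.4 and 3.12 in endodermis lines 1 and 2, 5.23 in stele and 3.79 in columella root cap. PER27 (AT3G01190) reached 437 FPKM in epidermis, against 55.0 in cortex, 30.1 and 5.04 in the endodermis lines, 3.27 in stele and 7.18 in columella root cap. PER69 (AT5G64100), known for root hair growth in the cold, was at 424 FPKM in epidermis, 36.9 in cortex, 11.9 and 1.31 in the endodermis lines, 1.66 in stele and 2.95 in columella root cap. These 3 genes had the highest peroxidase levels of the epidermis library and carried 43.1% of its peroxidase FPKM. All other libraries were lower for each of them, with cortex the next for PER27 and PER69 and endodermis line 1 the next for PER57.

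The list of root hair peroxidases held PER1, PER44, PER60, PER62, PER69 and PER73, which are known for root hair growth or for their root hair expression. Of the 5 measured, 4 were enriched in epidermis. PER44 (AT4G26010) was at 199 FPKM in epidermis, 2.49 in cortex, 27.5 and 1.73 in the endodermis lines, 2.30 in stele and 1.45 in columella root cap. PER73 (AT5G67400) was at 133 FPKM in epidermis, 1.82 in cortex, 4.79 and 0.863 in the endodermis lines, 7.75 in stele and 1.09 in columella root cap. Both encode enzymes thought to cross-link extensins in the hair wall, and in both the epidermis library stood well clear of the rest. PER60 (AT5G22410) was at 71.0 FPKM in epidermis, 0.680 in cortex, 1.73 and 0.527 in the endodermis lines, 0.705 in stele and 0.264 in columella root cap. PER62 (AT5G39580) departed from the group: it measured 12.4 FPKM in epidermis, 4.92 in cortex, 53.5 and 3.01 in the endodermis lines, 0.375 in stele and 1.24 in columella root cap. Its 2 endodermis libraries lay on either side of epidermis, and its place among the 17 genes highest in endodermis, which uses the mean of the lines, rests on line 1 alone. The 7 root hair markers summed to 1017 FPKM in epidermis and to between 9.19 and 33.5 FPKM in the other libraries, and none was at 0 in any library. Root cap markers were also present in epidermis, at a sum of 184.3 FPKM against 533.0 in columella root cap and 25.5 to 92.2 in the others. The part of either in the epidermal peroxidase levels was not tested.

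The other epidermal peroxidases have less studied roles. PER7 (AT1G30870) was at 259 FPKM in epidermis, 2.16 in cortex, 4.93 and 0.765 in the endodermis lines, 1.87 in stele and 0.981 in columella root cap. PER35 (AT3G49960) was at 106 FPKM in epidermis, 1.14 in cortex, 2.72 and 0.705 in the endodermis lines, 0.682 in stele and 0.369 in columella root cap. With PER57 and PER60, these had some of the widest gaps of the family. The ratio of epidermis to the next cell type was 91.0 for PER7, 71.6 for PER57, 63.0 for PER60 and 61.9 for PER35. That next cell type was endodermis for each, by the mean of its lines, and the gap to line 1 alone was smaller. The log2(FPKM + 1) margins over line 1 were 5.455, 5.32, 4.722 and 4.847 in the same order. PER16 (AT2G18980) was at 172 FPKM in epidermis, 18.0 in cortex, 25.3 and 6.94 in the endodermis lines, 0.817 in stele and 7.21 in columella root cap. PER21 (AT2G37130) was at 125 FPKM in epidermis, 9.83 in cortex, 6.84 and 0.884 in the endodermis lines, 0.614 in stele and 1.91 in columella root cap. These genes had their second levels in the ground tissue layers. PER24 (AT2G39040) did not: it was at 125 FPKM in epidermis, 2.77 in cortex, 2.11 and 0.537 in the endodermis lines, 0.607 in stele and 17.0 in columella root cap. PER51 (AT4G37530) was at 35.7 FPKM in epidermis, 0.756 in cortex, 1.44 and 0.353 in the endodermis lines, 0.260 in stele and 0.375 in columella root cap. PER8 (AT1G34510) was at 34.9 FPKM in epidermis, 0.263 in cortex, 1.05 and 0.233 in the endodermis lines, 0.255 in stele and 0.0842 in columella root cap. PER8 and PER51 were thus low genes outside epidermis, at or under 1.44 FPKM in all 5 other libraries. PER71 (AT5G64120), known to restrict cell size through the wall, had the lowest maximum of the group, with 10.1 FPKM in epidermis, 2.42 in cortex, 2.81 and 0.166 in the endodermis lines, 0.110 in stele and 0.737 in columella root cap.

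A second reading used limma on log2(FPKM + 1), in which a cell type was set against the average of the remaining 4 and p-values were adjusted by Benjamini-Hochberg over all measured genes. It takes its spread from the endodermis pair alone and assumes that the lone libraries vary like that pair. In the main fit this spread was shared across genes of similar level. A gene's own gap between the lines thus did not set its SE. In epidermis limma called 19 of 44 peroxidases (6.66% of all genes were called in either direction), of which 18 were higher and PER66 was lower. All 14 enriched genes were among the 18, for example PER57 with a log2 difference of 6.74 (SE 0.94, limma adjusted p = 2.79e-10), together with PER4, PER5, PER34 and PER45. The median difference of the 44 genes in epidermis was 0.83 on the log2 scale, against -0.39 for all measured genes. It lay in a gap between the middle genes PER42 (0.08) and PER31 (1.57). The median was 0.12 after rescaling to TPM and 1.57 with a minimum of 5 FPKM. Measured genes were picked anew in both settings, so these medians are not of the same 44 genes. These calls depend on the settings, since limma called 0 of the peroxidases in epidermis, endodermis, stele or columella root cap after scaling by size factors, and likewise 0 with no filter on low values. The rule of size kept all 14 genes with size factors and added PER5, PER31 and PER56.

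The root hair element is a promoter motif of root hair genes that the bHLH factor RSL4 is known to bind. It was searched on both strands in the 250 bases before the annotated gene start, and was present in 2 of the 14 epidermis-enriched peroxidases (14.3%), in 3 of the 60 members (5.0%), in 25 of 864 epidermis-enriched genes (2.89%) and in 207 of all 27443 promoters (0.754%). The 2 promoters are shown because they carry the motif before genes enriched in epidermis, and they come from the RefSeq genome of build TAIR10.1. That of PER27 lies at chr3:68666-68915 on the minus strand with the motif ending 229 bases before the start, and that of PER60 at chr5:7426060-7426309 on the plus strand with the motif ending 76 bases before it. Neither window overlaps another annotated gene, each is written from 5′ to 3′, and capitals mark the motif.
PER27: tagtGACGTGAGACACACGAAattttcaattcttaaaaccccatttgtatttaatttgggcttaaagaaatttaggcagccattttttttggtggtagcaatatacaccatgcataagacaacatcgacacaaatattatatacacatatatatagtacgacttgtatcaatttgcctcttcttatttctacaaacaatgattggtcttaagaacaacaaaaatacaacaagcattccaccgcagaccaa
PER60: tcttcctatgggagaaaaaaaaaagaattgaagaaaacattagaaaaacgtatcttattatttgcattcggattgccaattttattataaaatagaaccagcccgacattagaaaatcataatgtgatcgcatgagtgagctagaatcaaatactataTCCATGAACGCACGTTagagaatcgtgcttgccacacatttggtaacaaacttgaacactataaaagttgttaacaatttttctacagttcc
The third member with a match was PER20 (AT2G35380), which was below 1 FPKM in every library. Within 1000 bases before the start, the motif was found in 3 of the 14 (21.4%, with PER73 added), in 4 of the 60 (6.67%), in 7.06% of all epidermis-enriched genes and in 2.9% of all promoters. A match describes the letters and not a bound site, and 11 of the 14 had no match in either window.

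In endodermis the enriched peroxidases made up 86.9% of the peroxidase FPKM in line 1 and 80.7% in line 2. All 5 peroxidases known to act together in Casparian strip lignification, PER3, PER9, PER39, PER64 and PER72, were enriched there. PER3 (AT1G05260), first described as a cold-inducible peroxidase, was at 11.4 FPKM in epidermis, 72.0 in cortex, 2757 and 1377 in endodermis lines 1 and 2, 6.83 in stele and 15.0 in columella root cap. PER39 (AT4G11290) was at 4.77 FPKM in epidermis, 35.0 in cortex, 1253 and 764 in the endodermis lines, 2.32 in stele and 6.27 in columella root cap. PER3 was the most abundant peroxidase of both endodermis libraries. Line 1 was 2.002 times line 2 for PER3 and 1.64 times for PER39. For both genes the drop to cortex, the sister ground tissue layer, was more than an order of magnitude.

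The other Casparian strip peroxidases were also highest in both lines, but the lines differed. PER72 (AT5G66390), which also takes part in stem lignification, was at 5.97 FPKM in epidermis, 4.17 in cortex, 1436 and 51.5 in the endodermis lines, 0.983 in stele and 8.00 in columella root cap. PER64 (AT5G42180), the enzyme placed at the strip with CASP proteins, was at 3.29 FPKM in epidermis, 2.97 in cortex, 765 and 34.6 in the endodermis lines, 0.778 in stele and 2.82 in columella root cap. PER9 (AT1G44970), also known with PER40 from the tapetum of anthers, was at 1.15 FPKM in epidermis, 1.33 in cortex, 226 and 10.03 in the endodermis lines, 0.336 in stele and 1.00 in columella root cap. Line 2 stood above every other cell type for all 3 genes, and line 1 stood a further 22.1 to 27.9 times higher. In limma the difference of endodermis from the other cell types was 6.86 (SE 0.69, adjusted p = 1.12e-18) for PER39, 6.73 (SE 0.75, adjusted p = 1.36e-15) for PER3 and 5.65 (SE 0.78, adjusted p = 3.55e-10) for PER64. These SEs rest on a spread shared across genes. The gap of PER64 between its own lines, 4.43 on the log2(FPKM + 1) scale, did not set its SE or p-value.

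PER32, PER37 and PER54 were enriched in endodermis as well. PER32 (AT3G32980) was at 4.67 FPKM in epidermis, 13.98 in cortex, 737 and 239 in the endodermis lines, 6.95 in stele and 3.18 in columella root cap. PER37 (AT4G08770) was at 0.703 FPKM in epidermis, 4.50 in cortex, 112 and 107 in the endodermis lines (mean 110 ± 3.49, SD, n = 2), 8.14 in stele and 1.58 in columella root cap. PER54 (AT5G06730) was at 0.147 FPKM in epidermis, 1.04 in cortex, 25.4 and 17.2 in the endodermis lines, 2.73 in stele and 0.436 in columella root cap. PER37 had the closest agreement between the lines of all 8 genes, and stele rather than cortex was its next cell type, as it was for PER54. PER40 (AT4G16270), which is not one of the 60, showed the same layer, with 0.346 FPKM in epidermis, 2.24 in cortex, 59.1 and 49.1 in the endodermis lines, 0.406 in stele and 1.17 in columella root cap. Over all 44 measured peroxidases, limma called 12 higher and 0 lower in endodermis (2.16% of all genes were called in either direction). These were the 8 enriched genes with PER15, PER22, PER30 and PER49. The call count in endodermis fell to 4 without the mean-variance trend. The median difference of the 44 in endodermis was 0.15, against -0.03 for all genes, and it was -0.63 without line 1.

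Most peroxidases had a higher level in endodermis line 1 than in line 2. On the log2(FPKM + 1) scale, 29 of the 44 (65.9%) were at least 2-fold higher in line 1, against 17.7% of all measured genes, and 1 gene (2.27%), PER63, was at least 2-fold higher in line 2, against 17.4%. Higher levels in line 1 were not limited to genes of the endodermis. The 14 genes enriched in epidermis had ratios of line 1 to line 2 of 3.28 to 16.9 (median 5.57), at 0.166 to 6.94 FPKM in line 2. The median ratio of the 8 genes enriched in endodermis was 2.54, and the ratio divided these 8. It was 1.05 for PER37, 1.47 for PER54, 1.64 for PER39, 2.002 for PER3 and 3.08 for PER32, but 22.1 for PER64, 22.5 for PER9 and 27.9 for PER72. Genes of the Casparian strip also had large ratios. The ratio was 24.0 for CASP1, 18.2 for CASP2, 14.3 for CASP4, 10.9 for CASP5 and 19.1 for ESB1, the dirigent-like protein of the strip. PER3 and PER39, also strip peroxidases, did not. Ratios of this size were not particular to the strip. They ran from 1.87 to 43.1 in the 5 phloem markers and from 5.28 to 66.4 in the 9 xylem markers. In the 19 measured peroxidases not enriched in any cell type they ran from 0.437 to 94.9. MYB36, the factor that starts strip formation, had a ratio of 5.35 and the receptor kinase SGN3 had 4.71. The layer identity genes SCR and EN7 went the other way, at 0.405 and 0.384.

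**Figure D3:**
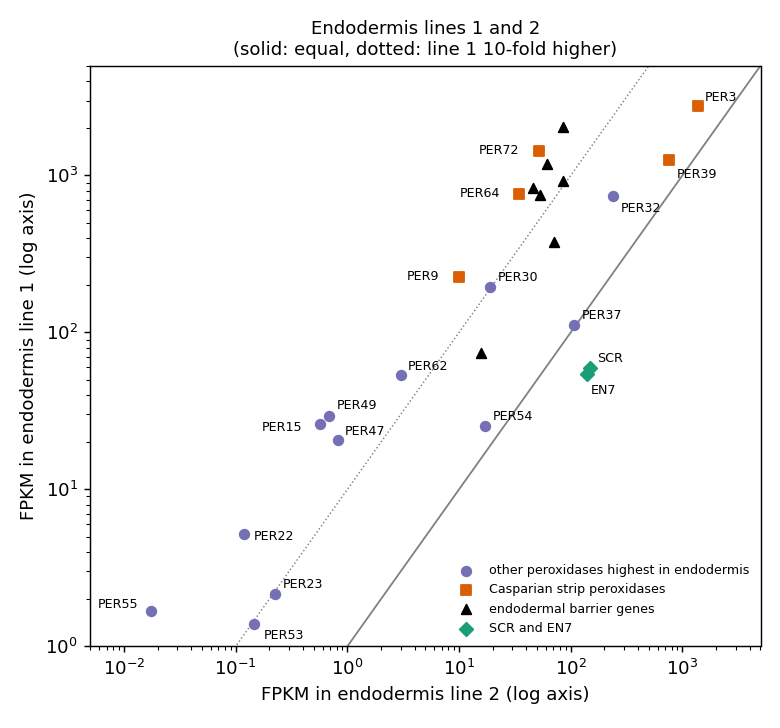
FPKM in endodermis line 1 (vertical, log axis) against line 2 (horizontal, log axis) for the 17 peroxidases highest in endodermis, 7 endodermal barrier genes (MYB36, CASP1, CASP2, CASP4, CASP5, ESB1 and SGN3) and SCR and EN7. PER37, PER39 and PER54 lie near the solid line of equal levels, and PER3 lies above it at a ratio of 2.002. PER9, PER64 and PER72 lie above the dotted line of a 10-fold difference among the barrier genes, and SCR and EN7 lie below equality.

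A further set of peroxidases was high in line 1 alone. PER15 (AT2G18150) was at 26.0 FPKM in line 1 and 0.564 in line 2, with at most 0.0685 FPKM in any other cell type. PER49 (AT4G36430) was at 29.3 and 0.685 FPKM in the lines and at most 0.427 elsewhere, and PER22 (AT2G38380) at 5.17 and 0.119 with at most 0.161 elsewhere. PER47 (AT4G33420), known from lignifying vascular tissue, was at 0.523 FPKM in epidermis, 1.81 in cortex, 20.6 and 0.820 in the endodermis lines, 0.418 in stele and 0.906 in columella root cap. None of these passed the rule for enrichment, because line 2 was not above the other layers by the margin of 1 on the log2(FPKM + 1) scale. In line 2, PER15 and PER49 were still above the other cell types, and PER22 and PER47 were not. PER30 (AT3G21770) was a milder case, with 195 and 19.0 FPKM in the lines and 17.6 in cortex. Without line 2 the number of peroxidases enriched in endodermis was 14 in place of 8, with PER15, PER22, PER30, PER47, PER49 and PER62 added. Without line 1 it was 8. Leaving out a line loosens the rule for every gene, and the share of all genes enriched was not computed for these settings. The rise to 14 is thus no result about the peroxidases as a set. Sets of other cell types and of stress also moved with the lines. The 9 xylem markers summed to 155.7 FPKM in line 1 and 19.2 in line 2, with line ratios of 5.28 to 66.4, the 5 phloem markers to 48.5 and 5.49, the 7 root hair markers to 33.5 and 9.19, the 7 root cap markers to 92.2 and 26.7, the 3 cortex markers to 20.1 and 11.9, and the 9 stress and protoplasting markers to 1632 and 377.7. The 8 stele markers went the other way in sum, at 107.1 and 139.9 FPKM, but their line ratios ran from 0.333 to 8.89. Among them TMO5, CNA and WOL were higher in line 1 and the rest were lower. The cortex markers were mixed as well, with ratios from 0.222 for CO2 to 11.4 for CVIF2. None of these markers was at 0 in either line. Their part in the peroxidase differences was not tested.

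Cortex had 1 enriched peroxidase. PER42 (AT4G21960) was at 172 FPKM in epidermis, 515 in cortex, 154 and 238 in the endodermis lines, 159 in stele and 44.4 in columella root cap. Its log2 margin was 1.11, just over the limit of 1, and it was also the only member depleted in columella root cap, where 1.11% of all genes met the mirrored rule. PER45 (AT4G30170) was at 414 FPKM in epidermis, 579 in cortex, 330 and 274 in the endodermis lines, 3.06 in stele and 10.9 in columella root cap. PER42 was thus present in every layer, while PER45 was high in the 3 layers outside stele and low in stele and root cap. Together with PER3 they carried 75.6% of the peroxidase FPKM of cortex. limma called 0 peroxidases in cortex, with 3 at an unadjusted p under 0.05, against 0.513% of all genes called. The median difference was -0.19, against -0.01 for all genes.

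Stele was the poorest library in peroxidases, and PER19 was its 1 enriched gene. PER19 (AT2G34060) was at 0.258 FPKM in epidermis, 4.54 in cortex, 1.10 and 1.66 in the endodermis lines, 40.9 in stele and 1.59 in columella root cap, with a limma log2 difference of 4.04 (SE 0.92, adjusted p = 0.00128). PER63 (AT5G40150) was at 5.01 FPKM in epidermis, 13.5 in cortex, 4.71 and 10.8 in the endodermis lines, 19.5 in stele and 8.40 in columella root cap. PER42, PER19 and PER63 carried 64.8% of the peroxidase FPKM of stele, and PER63 was spread over all layers. The gene PER12 (AT1G71695) was also highest in stele, at 9.30 FPKM, with 5.77 in columella root cap next. Vascular markers were high in this library only in part, as 1 of 5 phloem and 0 of 9 xylem markers were enriched. The 9 stress and protoplasting markers were also lowest there, at a sum of 148.7 FPKM against 377.7 to 1927 in the others. The part of either in the low peroxidase levels was not tested.

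Low levels in stele were shared by many members. By the mirrored rule, at least 1 on the log2 scale below every other library and 5 FPKM in all of those, PER16, PER31 and PER45 were depleted in stele, 3 of 44 (6.82%, against 2.2% of all genes). PER31 (AT3G28200) was at 105 FPKM in epidermis, 66.7 in cortex, 49.4 and 25.5 in the endodermis lines, 8.99 in stele and 64.6 in columella root cap. It was thus common to all layers and lowest in stele. No member was depleted in epidermis, cortex or endodermis, against 0.966%, 0.0458% and 0.0% of all genes. limma called 8 members in stele (2.97% of all genes), PER19 higher and PER3, PER16, PER27, PER39, PER45, PER69 and PER72 lower, the strongest being PER45 with a log2 difference of -5.40 (SE 0.98, adjusted p = 2.04e-05). In stele 37 of the 44 had a negative difference, with a median of -1.40 against 0.06 for all genes. The share of all genes with a negative difference was not computed. A gene very high in 1 other layer is negative here even where stele is near the remaining layers. PER7, for example, had -1.57 with 1.87 FPKM in stele and 2.16 in cortex.

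Columella root cap had 1 enriched peroxidase. PER66 (AT5G51890), whose relative in Zinnia marks lignifying xylem vessels, was at 2.40 FPKM in epidermis, 22.2 in cortex, 24.3 and 2.58 in the endodermis lines, 18.2 in stele and 294 in columella root cap. Its limma log2 difference in columella root cap was 4.75 (SE 0.92, adjusted p = 2.86e-05), and in epidermis -3.30 (SE 0.92, adjusted p = 0.00724). PER66, PER31 and PER42 carried 72.3% of the peroxidase FPKM of that library. Xylem markers were high in the same library: 7 of 9 were enriched there, and their sum was 1077 FPKM against 285.7 in stele, 155.7 and 19.2 in the endodermis lines, 87.7 in cortex and 15.9 in epidermis. The xylem peptidase gene XCP1 was at 317 FPKM in columella root cap and 98.7 in stele, and the laccase gene LAC17 at 171 and 12.7. PER66 was lower in stele than in endodermis line 1, as was LAC17 (13.6 FPKM in line 1), whereas XCP1 had its second level in stele. The root cap markers summed to 533.0 FPKM there. The part of xylem cells in the level of PER66 was not tested.

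**Figure D4:**
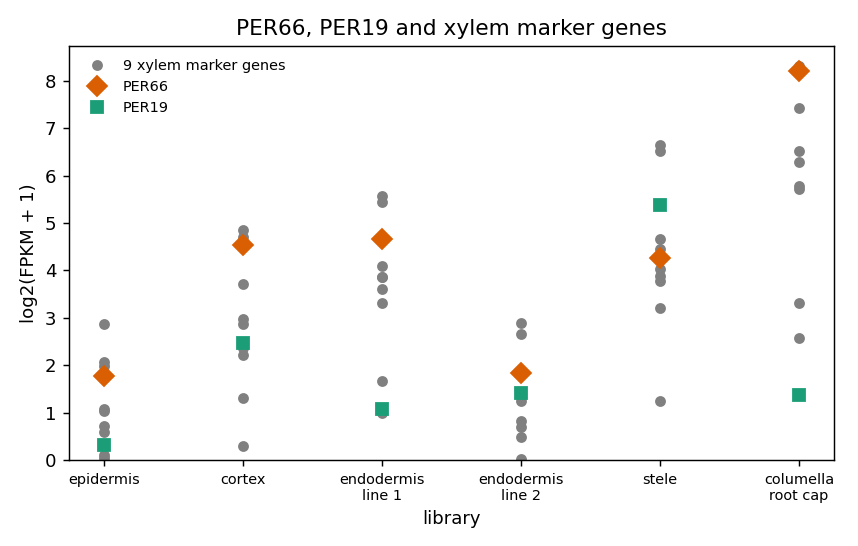
Level as log2(FPKM + 1) (vertical axis) of PER66, PER19 and 9 xylem marker genes in the 6 libraries (horizontal axis), 1 point per gene. PER66 stands at 294 FPKM in columella root cap, among the raised xylem markers of that library, while PER19 is highest in stele, at 40.9 FPKM.

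PER17 was the other member with its highest level in columella root cap. PER17 (AT2G22420), known from lignified tissue, was at 0.918 FPKM in epidermis, 2.10 in cortex, 18.2 and 3.23 in the endodermis lines, 16.0 in stele and 21.6 in columella root cap. It had no single layer. limma called PER66 higher and PER45 lower in columella root cap (2 of 44, 4.55%, against 5.04% of all genes). The median difference was -1.12, against -0.05 for all genes, and 37 of the 44 were negative. The limits given for the stele count hold for this count as well, and the share of all genes was not computed.

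The list of peroxidases with a known part in vascular lignin held 9 genes, PER4, PER17, PER25, PER47, PER52, PER64, PER66, PER71 and PER72, of which 7 were measured. Of these, 0 were enriched in stele, where 1.55% of all genes were, so this count lies near the background. PER64 and PER72 were enriched in endodermis, PER71 in epidermis and PER66 in columella root cap. PER4 (AT1G14540) was at 18.4 FPKM in epidermis, 0.384 in cortex, 13.9 and 0.439 in the endodermis lines, 0.110 in stele and 0.131 in columella root cap. PER25 (AT2G41480) reached at most 0.482 FPKM and PER52 (AT5G05340) at most 0.491 FPKM, both in endodermis line 1, and at most 0.218 elsewhere. Of the pair known for the oxidative burst in defence, PER33 (AT3G49110) stayed at or under 0.0704 FPKM in all libraries. PER34 (AT3G49120) was at 2.58 FPKM in epidermis, 0.254 in cortex, 0.304 and 0.0120 in the endodermis lines, 0.0886 in stele and 0.05003 in columella root cap.

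Some neighbouring copies differed in layer or level. PER50 (AT4G37520) and PER51 lie side by side with 92.4% identity of their coding sequences, but PER50 was at 27.5 FPKM in epidermis, 13.4 in cortex, 23.8 and 16.7 in the endodermis lines, 0.370 in stele and 0.939 in columella root cap, so it covered 3 layers where PER51 was epidermal. PER37 and PER38 (AT4G08780) share 93.8%, and PER38 reached 0.658 FPKM in endodermis line 1, where PER37 had 112. PER53 (AT5G06720) and PER54 share 80.8%, and PER53 reached 1.38 FPKM in line 1 and 0.146 in line 2. PER22 and PER23 (AT2G38390), with 90.6%, went together, with PER23 at 2.17 FPKM in line 1 and 0.226 in line 2. PER4 and PER5 (AT1G14550), with 72.3%, were both highest in epidermis, where PER5 had 4.97 FPKM. PER69, PER70 (AT5G64110) and PER71 lie in a row, and PER70 stayed at or under 0.167 FPKM between its 2 epidermal neighbours. Of the 50-base words in their transcripts, PER37 and PER38 shared 7.78% and 9.31% with the family, PER50 and PER51 6.22% and 6.15%, PER22 and PER23 1.42% and 1.72%, and the others named here 0.0%.

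The 16 members that were not measured had maxima from 0.0106 FPKM (PER1) to 0.658 FPKM (PER38), and the lowest maximum among the measured was the 1.38 FPKM of PER53. Besides PER1, PER2, PER20, PER25, PER33, PER38, PER52 and PER70 they were PER6 (AT1G24110), PER10 (AT1G49570), PER11 (AT1G68850), PER28 (AT3G03670), PER36 (AT3G50990), PER59 (AT5G19890), PER65 (AT5G47000) and PER67 (AT5G58390). PER36 is known from the seed coat, where it loosens the wall around mucilage. PER1 (AT1G05240), a root hair gene by other evidence, was listed at 0.0106 FPKM in epidermis and 0 in all other libraries, and PER2 (AT1G05250) at 0.0630 and 0. In the reference their coding sequences of 978 bases are 100% identical, with 0 mismatches, and 100% of the 50-base words of the PER2 transcript and 59.4% of those of PER1 occur in another transcript of the family. How the authors assigned reads that match several copies is not given in the sources used here. A read from either coding sequence cannot be told from the other, and these low values say nothing firm about either gene. The first 90 coding bases on chromosome 1, the same in both genes, show this.
PER1 and PER2: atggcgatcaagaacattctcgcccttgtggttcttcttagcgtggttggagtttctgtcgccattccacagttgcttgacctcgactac
No other member shared more than 9.31% of its 50-base words with the family, the value of PER38.

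The remaining measured members without an enriched layer were PER55 (AT5G14130), at most 1.67 FPKM in endodermis line 1, and PER56 (AT5G15180). PER56 was at 34.6 FPKM in epidermis, 21.6 in cortex, 3.77 and 0.297 in the endodermis lines, 0.747 in stele and 4.76 in columella root cap. It was an outer-layer gene that missed the rule because cortex was within a factor of 2 of epidermis.

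Genes of enzymes that supply or remove hydrogen peroxide were read beside the 13.0% of all measured genes enriched in any cell type. Of 10 NADPH oxidase genes, 8 were measured and 3 were enriched, all in epidermis, where 4.46% of all genes were: RBOHC, the oxidase of root hair growth, at 85.5 FPKM there, RBOHG at 17.2 and RBOHI at 9.04. RBOHF, which supplies the Casparian strip, was at 31.8 FPKM in epidermis, 8.53 in cortex, 92.9 and 13.6 in the endodermis lines, 21.1 in stele and 4.47 in columella root cap, and was not enriched in any. RBOHB was higher in endodermis in limma (log2 difference 3.44, SE 0.82, adjusted p = 0.00303), at 136 and 8.998 FPKM in the lines, but cortex, at 10.2 FPKM, was above line 2. Of 7 measured superoxide dismutases, which make hydrogen peroxide, 0 were enriched, and FSD1 was called higher in endodermis by limma. Of 10 ascorbate peroxidases and catalases, which remove it, TAPX was the 1 enriched gene, at 11.5 FPKM in columella root cap.

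UPBEAT1 (UPB1), the bHLH repressor of peroxidases at the transition zone, was present in every library. It was at 95.5 FPKM in epidermis, 66.2 in cortex, 96.5 and 103 in the endodermis lines, 88.1 in stele and 11.4 in columella root cap, and limma called it lower in columella root cap. Its 3 known target peroxidases, PER39, PER40 and PER57, were enriched in endodermis, endodermis and epidermis, where UPB1 RNA was not low. UPB1 protein and the position of cells along the root were not measured, and repression of these genes was not tested.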

How the data were processed

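Class III peroxidase levels were read from polyA+ RNA sequencing of 6 libraries of sorted root cells. The deposited values are FPKM, which the authors made with TopHat 1.3.1, Bowtie 0.12.7 and Cufflinks 2.0.2 on build TAIR10, per the submitters' processing notes, without roles or settings. The annotation, the strandedness, the depth and the handling of reads with several matches were not given in the sources used here. Without depth a value has no counting interval, and an exact 0 can be a failed estimate.

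The labelled cell type gave the groups. Values were compared as log2(FPKM + 1), which understates differences of low genes. Genes under 1 FPKM in all libraries were left out. Enriched genes had a log2 margin of 1 or more over all libraries of other cell types and reached 5 FPKM, and depleted genes the reverse. limma 3.58.1 (eBayes with trend, 1 residual degree of freedom) called genes with a log2 difference of 1 or more and an adjusted p under 0.05. Its prior degrees of freedom were infinite in the main fit, so its p-values rest on a spread shared across genes. The labels do not say whether the endodermis lines came from separate cultures, so this spread may be technical. The computations were also run on simulated data with planted changes. The simulated noise was set below the spread of the endodermis pair, so that run checks the code and not the calls made here. A result on 1 further gene is not reported here.

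The members and the gene lists were chosen with earlier results of these data known, so their counts are descriptions. Genes named with all values are the enriched members, the members of the role lists and the 3 highest members per library, and a few others were named after their values were seen. Names PER1 to PER73 follow the order of the loci. Promoters, coding identity (ends included) and shared 50-base words came from the RefSeq genome of TAIR10.1 with Biopython 1.88. Alternatives covered the pseudocount, the filter on low values, scaling, TPM, the margin, the limma trend and left-out libraries. Python 3.11.15, pandas 2.3.3, numpy 2.4.6 and matplotlib 3.10.9 were used.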

Additional observations from a re-analysis of the deposited data

How the results depend on the processing

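No paired analysis was possible because endodermis is the only cell type with more than 1 library, so the groups share fewer than 2 replicate numbers. The 25 enriched members kept their layer under size factors and TPM. They also did so under another pseudocount (0.1), under another filter and without either endodermis line. The same held without the epidermis library (for the genes of other layers) or the columella root cap library (likewise), a pair chosen after seeing the data. Apart from size factors and TPM, these settings could not remove a gene, because by the rule they cannot narrow its margin. With a 4-fold margin, 0 members were enriched in cortex and 13 in epidermis, where PER71, with a log2 margin of 1.54, was lost. Counts of enriched members moved to 14 in endodermis without replicate 2 (8 without replicate 1), to 3 in cortex (PER56 and PER69 added) and 2 in columella root cap (PER24 added) without the epidermis library, and to 2 in stele (PER12 added) without the columella root cap library. Leaving out a library loosens the rule for all genes, and their shares in these settings were not computed. limma called 0 members in columella root cap and stele without the trend, with no filter and with size factors, 0 in epidermis and endodermis with no filter and with size factors, and 4 in endodermis without the trend. Its prior degrees of freedom were 9.15, 1.22 and 3.50 in those fits, and the cause of the lower counts was not tested. With 1 endodermis line left out, limma has no residual degrees of freedom and gave no value. Medians that changed sign were that of cortex (0.0232 without replicate 1, -0.35 without replicate 2, 0.0005035 without the epidermis library), that of endodermis (-0.63 without replicate 1, 0.99 without replicate 2, -0.23 without the columella root cap library) and that of epidermis (-0.0131 with no filter), and the cause was not tested. Medians that kept their sign but moved by over 1.5 times included 0.12 (TPM) and 1.57 (minimum of 5 FPKM) in epidermis, 0.02 (minimum of 5 FPKM) in endodermis and -0.09 (pseudocount 0.1) in cortex. Size factors moved the median of all genes from -0.39 to -0.02 in epidermis, from -0.01 to -0.13 in cortex and from 0.06 to -0.21 in stele, where the peroxidase medians were 1.27, -0.26 and -1.62. The unknown read depth limits what the unmeasured genes can show.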

Other observations

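Of the 13 class III peroxidases outside the 60, 5 were measured, and a pair of them were high in the same 2 libraries. PER61 (AT5G24070) was at 123 FPKM in epidermis, 3.15 in cortex, 1.29 and 0.619 in endodermis lines 1 and 2, 0.166 in stele and 130 in columella root cap. PER26 (AT2G43480) was at 58.8 FPKM in epidermis, 6.04 in cortex, 2.98 and 2.26 in the endodermis lines, 0.500 in stele and 47.9 in columella root cap. Both were thus high in the epidermis and columella root cap libraries and low in the other 4, as were the root cap factor genes BRN1 (47.8 and 66.8 FPKM) and BRN2 (34.4 and 31.6 FPKM). Of the other root cap markers, ARF16 was alike (44.4 and 35.8 FPKM). The rest were higher in columella root cap: SMB (32.4 and 98.2 FPKM), FEZ (9.61 and 87.2), ARF10 (12.45 and 42.4) and PIN3 (3.30 and 171). PER61, PER26, BRN1 and BRN2 were chosen after their values were seen, and none of them was enriched in 1 cell type by the rule of size. PER29 (AT3G17070) reached 2.96 FPKM in endodermis line 1, and PER43 (AT4G25980) lay between 0.622 and 1.20 FPKM in all libraries.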
